A study of Arabidopsis thaliana with 12 samples.

Results

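Pre-mRNA splicing factor genes were followed at the transcript level in seedlings of the Arabidopsis thaliana prefoldin mutants pfd4 and 6x_pfd. The 40 genes were taken by locus identifier as a fixed list: the 18 SR proteins, the SR-like SR45 and SR45a, U1-70K and U1A of the U1 particle, the 4 U2AF subunits, PRP8, STA1, LIS and PRP31 of the U5 and U4/U6 particles, PTB1, PTB2, GRP7 and GRP8, 4 Sm proteins, and SKIP and PRL1. All 40 were among the 18366 genes of the pfd4 table, and 39 were among the 19397 genes of the 6x_pfd table, where SCL28 was not listed.

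The study sequenced mRNA from 12 whole-seedling samples of ecotype Col-0 in 4 groups of 3. One experiment compared pfd4 with wild type (WT) at 14 days under the label LD, the usual abbreviation of long days, collected at ZT1, and the other compared 6x_pfd with WT at 7 days under the label LL, the usual abbreviation of continuous light. The 14-day titles also carry the word mock, and no treatment is described for any group. No agent or transgene is named for any group, and the 2 experiments share no libraries. The pfd4 line is named for 1 prefoldin gene, and 6x_pfd is the usual short name of the sextuple prefoldin mutant. In the authors' deposited table PFD4 was at -1.99 ± 0.17 in pfd4. In 6x_pfd, 5 of the 6 prefoldin genes fell, and PFD6 was at -0.16 ± 0.10 in the authors' deposited table.

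Introns are removed by the spliceosome, which is built from the U1, U2, U4, U5 and U6 small nuclear particles. Each particle holds an RNA and a ring of Sm proteins, or of LSM proteins in the case of U6. SR proteins and hnRNP-like proteins bind the pre-mRNA and steer which splice sites are used, and in plants they are themselves subject to extensive alternative splicing. Prefoldin is a cochaperone of the chaperonin CCT with tubulin and actin among its clients, and in Arabidopsis it has been linked to the amount of the nuclear LSM2-8 complex.

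The deposited tables give, for each gene, a mean normalized count over the 6 libraries of a comparison and a log2 fold change of mutant over WT with its standard error (SE), written below as value ± SE. The tables carry no value for a single library, and replicate spread is present in the SE alone. Group means of normalized counts were worked out from the mean and the fold change, and levels are given per kb of the longest annotated transcript where genes are compared. The median SE of the splicing factor genes was 0.091 in pfd4 and 0.0853 in 6x_pfd in the authors' deposited tables, against 0.126 and 0.121 over all genes tested. All values are sums over the transcripts of a gene, of which the TAIR10.1 annotation lists from 1 (SCL30 and PRP8 among others) to 8 (RS40), so shifts between isoforms are not visible in them. Changes in the RNA of a cell and in the number of cells of a type cannot be told apart in whole seedlings.

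The splicing factor genes were well expressed in seedlings of both ages. Their median level in WT was 1079 normalized counts per kb at 14 days, against a median of 296 over all genes with an annotated length, and 959 at 7 days, against 342. At 14 days GRP8 had the highest level per kb, 2957 in WT and 2673 in pfd4, followed by SR45a and GRP7. At 7 days GRP7 led with 13175 in WT and 17124 in 6x_pfd, and GRP8 followed with 6456 and 6176. Both encode glycine-rich RNA-binding proteins whose transcripts are under clock control, and their levels at 7 days stood well above that of the next gene, U2AF65A, at 1679 in WT. Among the SR genes, RS2Z33 was highest at 14 days (2050 per kb in WT) and SR34 at 7 days (1568). At the low end, SCL28 reached 33.4 normalized counts per kb in the 14-day WT, and RS31a reached 156 there and 131 in the 7-day WT. Scaled to the summed normalized counts of each group, as CPM, the list made up 2770 in WT and 2647 in pfd4, and 2607 in WT and 2923 in 6x_pfd. In the 7-day sums GRP7 alone went from 462 to 633 and PRP8 from 278 to 343. The 6x_pfd total was also lower than that of WT (log2 ratio -0.0783), which raises each CPM value. By the deposited fold changes in 6x_pfd, 19 of the 39 genes lay above 0 and 20 below, with a median of -0.00703.

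**Figure D1:**
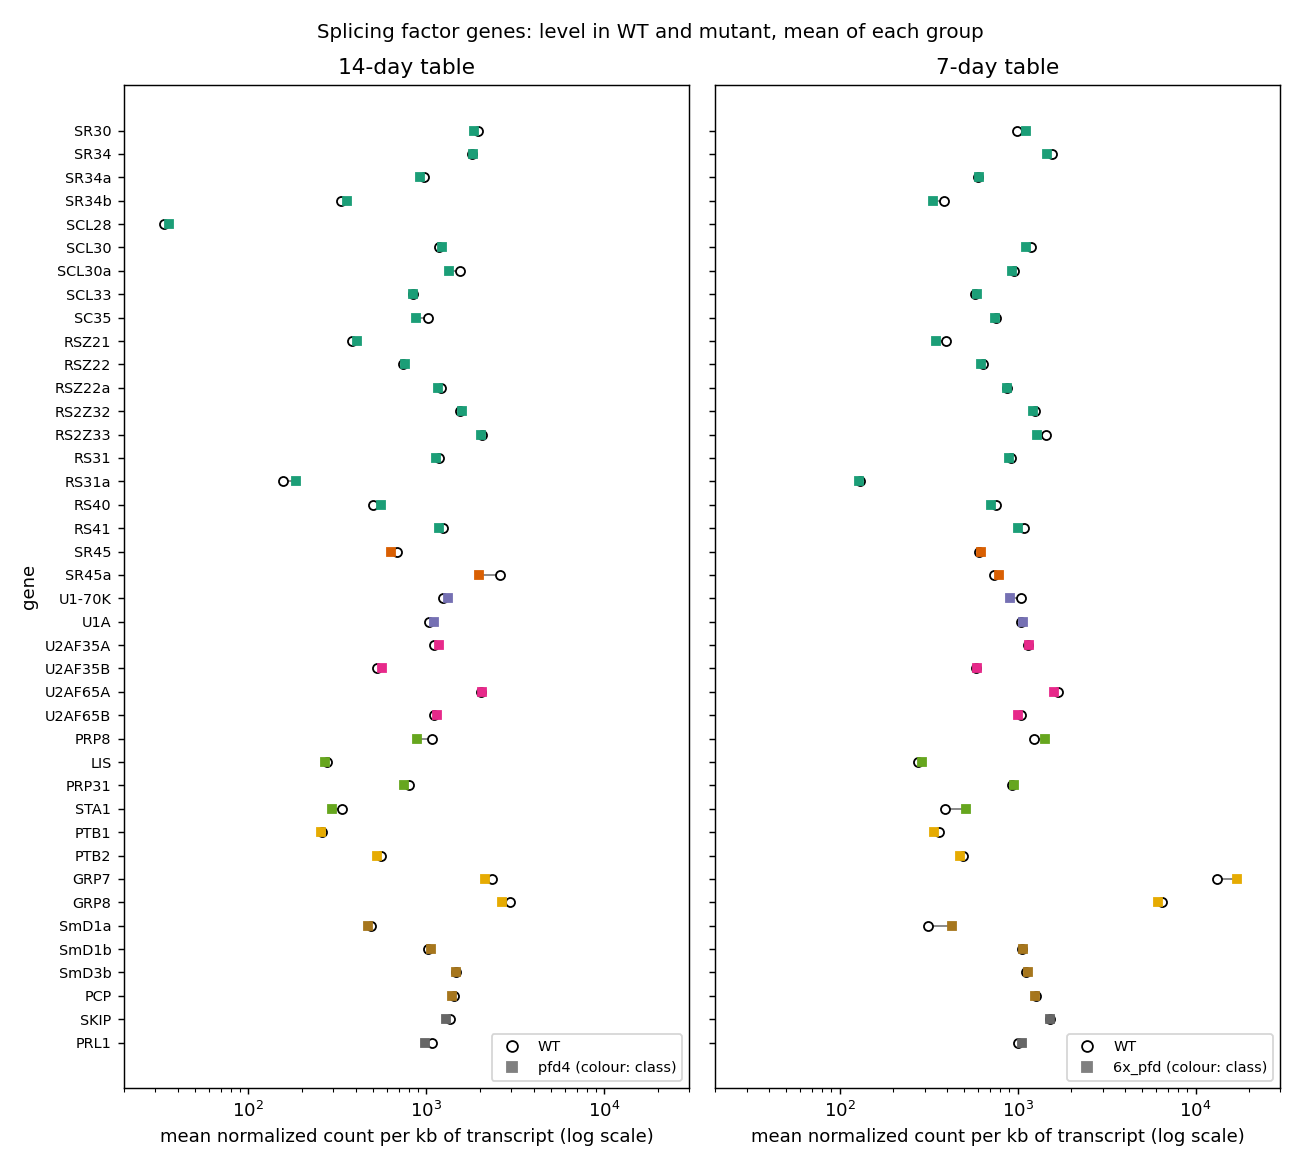
Group means of normalized counts per kb of the longest annotated transcript (log scale) for each splicing factor gene, WT as open circles and mutant as squares, left for pfd4 at 14 days and right for 6x_pfd at 7 days. WT and mutant symbols nearly coincide for most genes, and the most visible gaps are SR45a on the left and GRP7, STA1 and SmD1a on the right.

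Transcript levels of the splicing factor genes differed little between mutant and WT in either experiment. At an adjusted p below 0.05 in the authors' deposited tables, from DESeq2's Wald test with Benjamini-Hochberg adjustment over all genes, 1 of 40 passed in pfd4 and 5 of 39 in 6x_pfd. Over all genes tested 7.75% passed in pfd4 and 33.6% in 6x_pfd. The single call in pfd4 was a decrease of SR45a, where 3.81% of all genes fell and 3.94% rose. In 6x_pfd, where 16.9% of all genes rose and 16.8% fell, STA1, GRP7, PRP8 and SmD1a rose and U1-70K fell. With fold changes centred on equal group totals of normalized counts, 5 rose and 0 fell, and 36.3% of all genes were called. That step took the share of higher genes among all calls from 50.2% to 66.1%. None of the called members reached a change of 1 on the log2 scale, a size that 1.08% of all genes reached together with the FDR in pfd4 and 6.12% in 6x_pfd. The median absolute log2 fold change was 0.0813 over the 40 genes in pfd4 against 0.126 over all genes tested, and 0.0577 over the 39 genes in 6x_pfd against 0.196.

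At an unadjusted p below 0.05 the list had 4 of 40 genes in pfd4, against 19.0% of all genes, and 6 of 39 in 6x_pfd, against 41.2%. An FDR of 0.01 left 1 member in pfd4, where 4.55% of all genes passed, and 3 in 6x_pfd, where 24.8% did. Tested against a change of 25%, 0 members passed in either mutant, against 0.899% and 9.18% of all genes. SR45a stayed the single call in pfd4 with equal totals (7.67% of all genes called), with the median of all genes at 0 (7.69%), among genes with at least 100 mean normalized counts (8.44%) and with the length trend removed (7.42%). In 6x_pfd the same settings each gave 5 members, with SR30 in place of U1-70K under equal totals, against 36.3%, 33.6%, 34.0% and 33.5% of all genes.

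The values were precise enough to bound most changes. The 95% interval of the log2 fold change lay within a 1.5-fold change either way for 38 of 40 genes in pfd4 and 38 of 39 in 6x_pfd, against 76.1% and 64.5% of all genes tested, whose counts are lower at the median (536 against 1469 normalized counts in pfd4, and 615 against 1437 in 6x_pfd). The exceptions were SCL28 in pfd4 (0.11 ± 0.32, with an interval from -0.52 to 0.74), SR45a in pfd4 (-0.59 to -0.20) and SmD1a in 6x_pfd (0.13 to 0.74). SCL28 had a mean normalized count of 40.3, and 2.6% of the genes of its table had a lower one, so a change within its interval was not detectable at this depth.

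**Figure D2:**
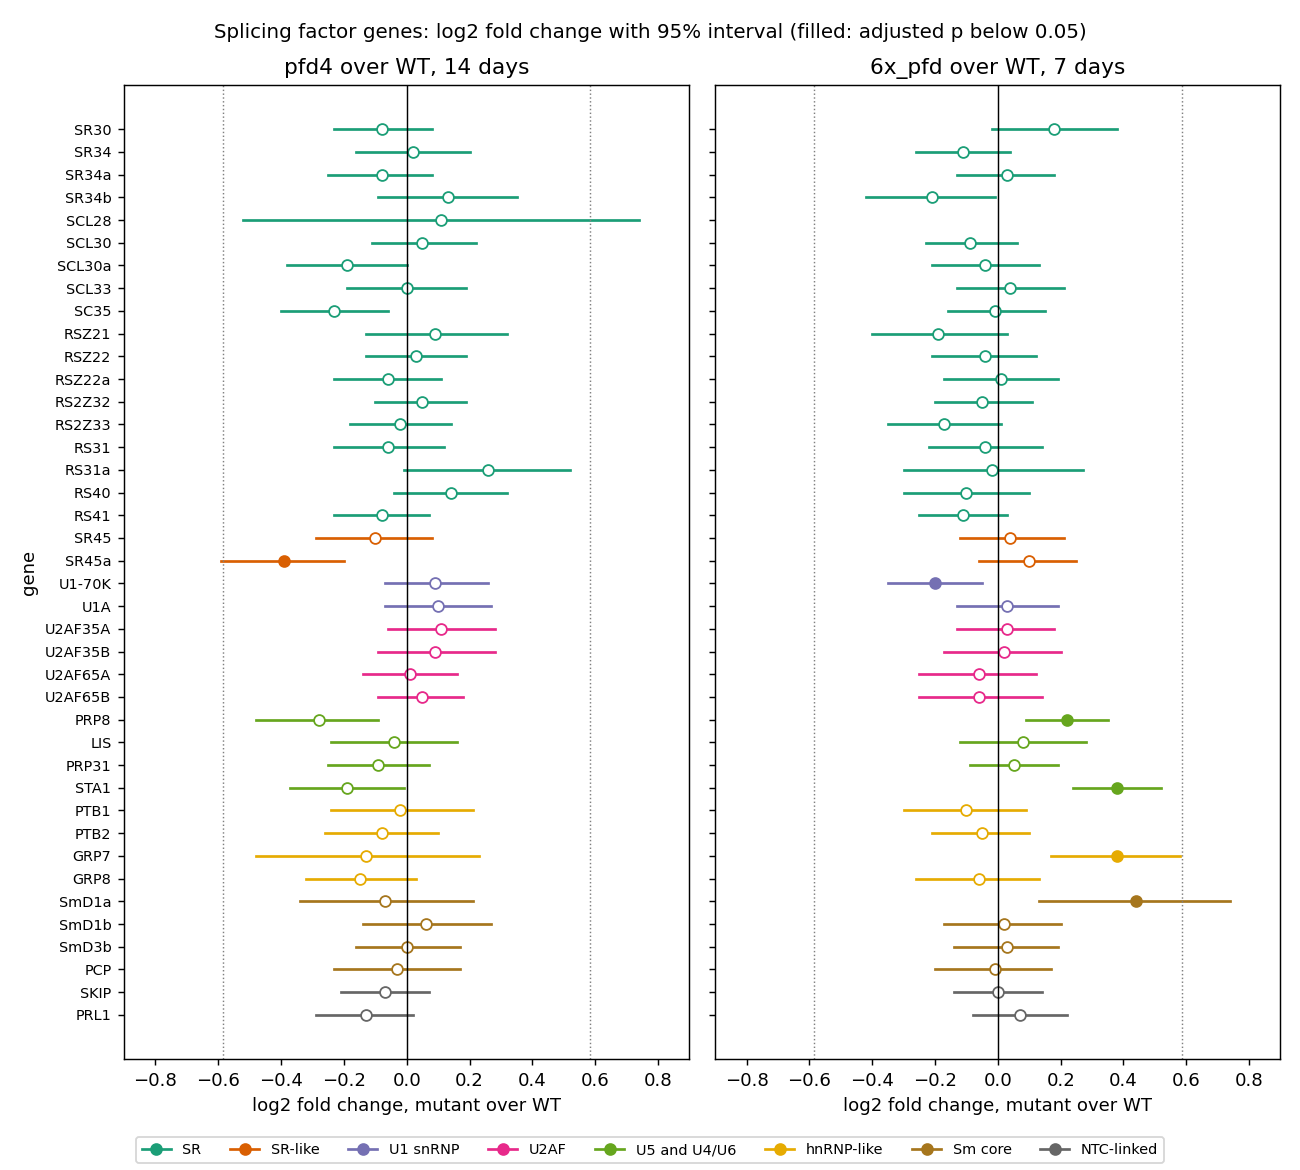
Log2 fold change, mutant over WT, of each splicing factor gene with its 95% interval, left for pfd4 and right for 6x_pfd. Filled symbols passed an adjusted p of 0.05, dotted lines mark a 1.5-fold change, and colours give the class of protein (SR, SR-like, U1 particle, U2AF, U5 and U4/U6 particles, hnRNP-like, Sm ring, and factors linked to the NTC, a spliceosome-activating complex). The intervals of 38 genes in each panel stay between the dotted lines.

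The SR proteins carry RNA recognition motifs and an arginine- and serine-rich domain and act in splice site choice. No SR gene passed in pfd4 or in 6x_pfd in the authors' deposited tables (DESeq2), where 7.75% and 33.6% of all genes did. At an unadjusted p below 0.05 there was 1 SR gene in each, SC35 in pfd4 and SR34b in 6x_pfd, against 19.0% and 41.2% of all genes. Of 18 genes measured in pfd4, 9 lay above 0 and 9 below, with a median of 0.01, and of 17 in 6x_pfd, 4 lay above and 13 below, with a median of -0.04. For comparison, 50.7% of all genes lay below 0 in pfd4 and 49.8% in 6x_pfd. The closest to the threshold in pfd4 was SC35, the orthologue of the human protein of that name, with 1641 normalized counts in WT and 1402 in pfd4 (-0.23 ± 0.09, adjusted p = 0.0869 from DESeq2 in the authors' deposited table). The antisense neighbour AT5G64190, which overlaps SC35 by 64 bp in the TAIR10.1 annotation, was at 1.91 ± 0.27 in pfd4 in the authors' deposited table. RS31a, the least abundant SR gene after SCL28, had the highest estimate, 0.26 ± 0.13, from 252 counts in WT and 301 in pfd4 in the authors' deposited table, and it did not pass (adjusted p = 0.285, DESeq2).

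In 6x_pfd, the SR genes with the smallest adjusted p in the authors' deposited table were SR34b (-0.21 ± 0.11, adjusted p = 0.111, DESeq2) and RS2Z33 (-0.17 ± 0.09, adjusted p = 0.139). SR30, whose transcript is known to be spliced differently in light and dark, stood on the other side with 2226 counts in WT and 2519 in 6x_pfd (0.18 ± 0.10, adjusted p = 0.183, DESeq2) in the authors' deposited table. RSZ21 (-0.19 ± 0.11), RS41 (-0.11 ± 0.07) and SR34 (-0.11 ± 0.08) did not pass either, with adjusted p = 0.199, 0.256 and 0.284 from DESeq2 in the authors' deposited table. RS2Z32 was at 0.05 ± 0.07 in pfd4 and -0.05 ± 0.08 in 6x_pfd, and SCL30 at 0.05 ± 0.08 and -0.09 ± 0.07, in the authors' deposited tables.

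Summed over the class, SR transcripts made up 1115 CPM in the 14-day WT and 1099 in pfd4, and 762 in the 7-day WT and 778 in 6x_pfd. The sums are thus near equal within each experiment. Scaling to group totals raises CPM in 6x_pfd, whose total was lower than that of WT (log2 ratio -0.0783). By the deposited fold changes, 13 of 17 SR genes lay below 0 there and 4 above.

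SR45a (AT1G07350), an SR-like protein whose gene is induced by heat and strong light, was the splicing factor gene that fell in pfd4. It went from 5136 normalized counts in WT to 3916 in pfd4, a log2 fold change of -0.39 ± 0.10 (0.76-fold, adjusted p = 0.0026, DESeq2) in the authors' deposited table. In 6x_pfd it was at 0.10 ± 0.08, with 1456 counts in WT and 1556 in the mutant, and did not pass (adjusted p = 0.381, DESeq2, in the authors' deposited table). Its relative SR45, which has an arginine- and serine-rich domain on each side of its RNA recognition motif, was at -0.10 ± 0.09 in pfd4 and 0.04 ± 0.08 in 6x_pfd in the authors' deposited tables.

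**Figure D3:**
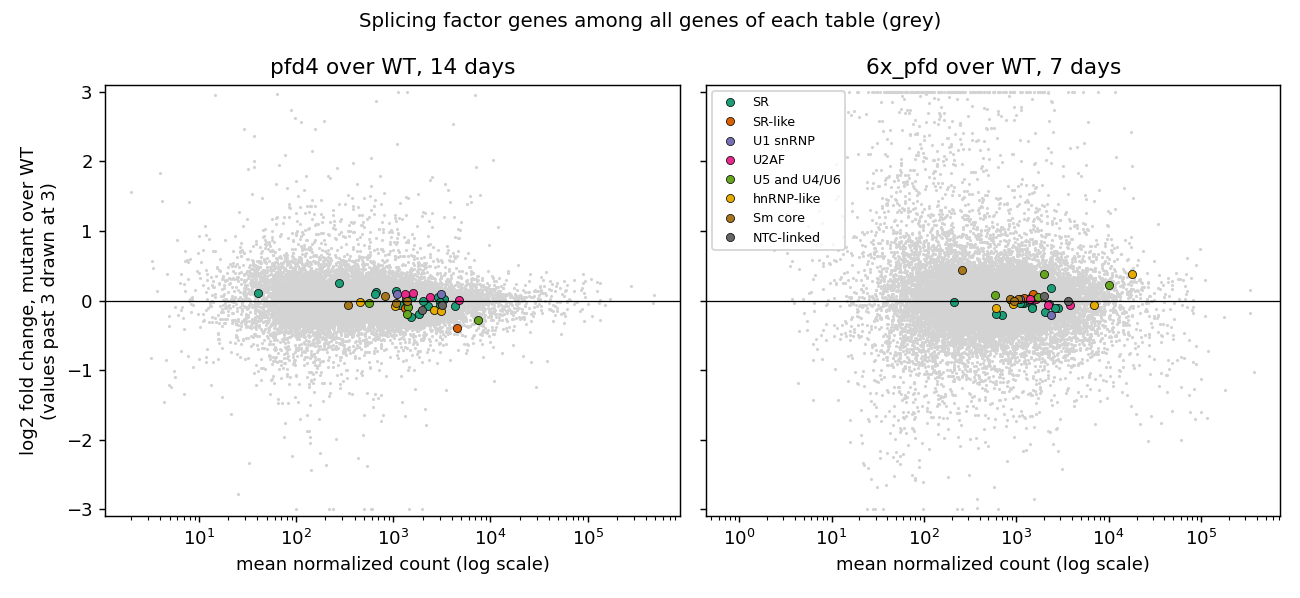
Log2 fold change, mutant over WT, against the mean normalized count (log scale) for all genes of each table in grey and the splicing factor genes in colour by class. The splicing factor genes lie between -0.39 and 0.26 in pfd4 and between -0.21 and 0.44 in 6x_pfd, close to 0 in a wider cloud.

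The proteins that recognise the splice sites are those of the U1 particle, which pairs with the 5′ splice site, and of U2AF, whose large and small subunits bind the polypyrimidine tract and the 3′ splice site. U1-70K (AT3G50670) fell slightly in 6x_pfd, from 2530 normalized counts in WT to 2204 (-0.20 ± 0.08, 0.87-fold, adjusted p = 0.0341, DESeq2, in the authors' deposited table). This call did not hold with equal group totals of normalized counts, where U1-70K was at -0.12 with adjusted p = 0.228 by the same Wald test. In pfd4 U1-70K was at 0.09 ± 0.08 in the authors' deposited table. U1A was at 0.10 ± 0.09 in pfd4 and 0.03 ± 0.08 in 6x_pfd in the authors' deposited tables. None of the 4 U2AF genes passed in either mutant, where 7.75% of all genes did in pfd4 and 33.6% in 6x_pfd. Their estimates lay between 0.01 and 0.11 in pfd4 and between -0.06 and 0.03 in 6x_pfd in the authors' deposited tables.

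Of the 4 genes of the U5 and U4/U6 particles, 2 passed in 6x_pfd, where 33.6% of all genes did, and no test was made between classes. STA1 (AT4G03430), the PRP6-type protein that bridges the particles of the tri-snRNP, rose from 1742 normalized counts in WT to 2267 in 6x_pfd (0.38 ± 0.07, adjusted p = 2.1e-06, DESeq2, in the authors' deposited table). PRP8 (AT1G80070), the central scaffold of the U5 particle, rose from 9251 to 10793 (0.22 ± 0.07, 1.17-fold, adjusted p = 0.00385, DESeq2, in the authors' deposited table). LIS, the PRP4 homologue, was at 0.08 ± 0.10 and PRP31 at 0.05 ± 0.07, and neither passed in the authors' deposited table. In pfd4 all 4 estimates lay below 0, where 50.7% of all genes did, and none passed, where 7.75% of all genes did. PRP8 was the nearest to the threshold of all members there, with 8115 counts in WT and 6676 in pfd4 (-0.28 ± 0.10, adjusted p = 0.0544, DESeq2, in the authors' deposited table), and STA1 was at -0.19 ± 0.09 (adjusted p = 0.241). LIS and PRP31 stood at -0.04 ± 0.10 and -0.09 ± 0.08 in pfd4 in the authors' deposited table.

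PRP8 and STA1 have the longest transcripts of the list, 7522 and 4446 bp in TAIR10.1, and fold changes varied with length over all genes. In pfd4 the median log2 fold change went from 0.061 in the shortest of 10 length bins to -0.092 in the longest, and in 6x_pfd from 0.008 to 0.040. Across 18285 genes, which are not independent replicates, Spearman's rho between length and log2 fold change was -0.197 in pfd4, and it was 0.045 across 19293 genes in 6x_pfd. After the median of each length bin was removed, STA1 was at 0.34 (adjusted p = 2.73e-05) and PRP8 at 0.18 (adjusted p = 0.0211) in 6x_pfd, by the same Wald test adjusted over all genes, so both calls held. SR45a in pfd4 was then at -0.38 (adjusted p = 0.00436). The longest bin had a median length of 3777 bp in 6x_pfd, well below that of PRP8, and a trend within a bin is not removed by this step.

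**Figure D4:**
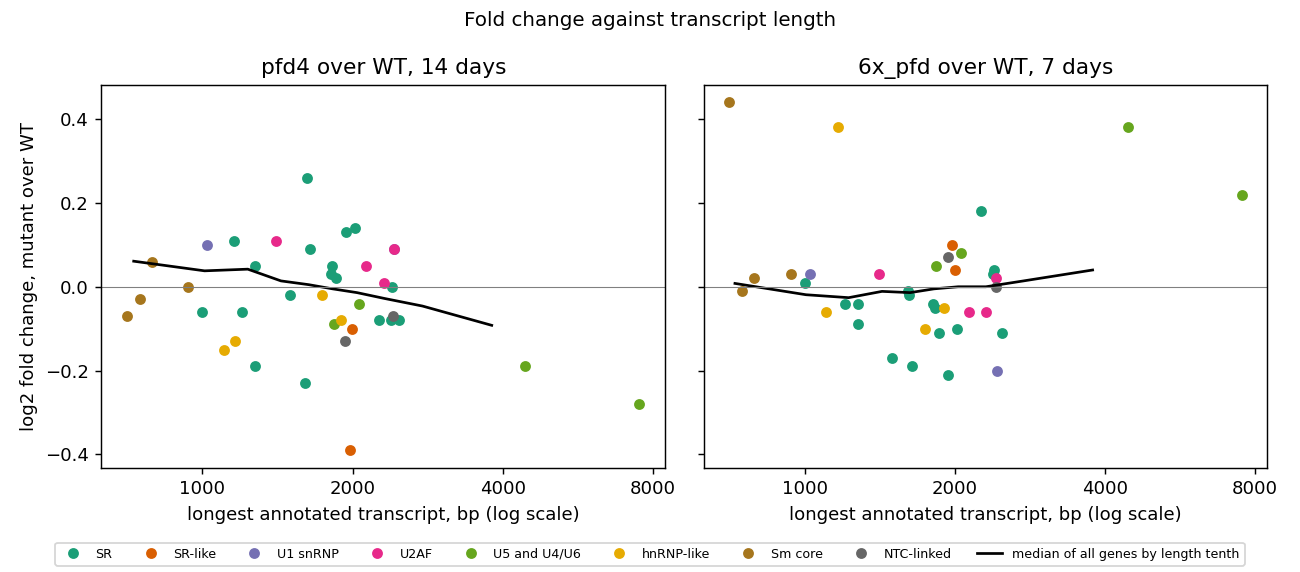
Log2 fold change, mutant over WT, against the length of the longest annotated transcript in bp (log scale) for the splicing factor genes, with the median of all genes in each of 10 length bins as a line. The line falls from 0.061 to -0.092 in pfd4 and ends at 0.040 in 6x_pfd. PRP8 and STA1 are the 2 points farthest to the right, below 0 in pfd4 and above 0 in 6x_pfd.

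Among the hnRNP-like genes, GRP7 (AT2G21660) rose in 6x_pfd. Its mean went from 15348 normalized counts in WT to 19950 (0.38 ± 0.10, adjusted p = 0.00147, DESeq2, in the authors' deposited table). GRP7 protein is known to regulate the splicing of its own transcript and that of GRP8, and both genes respond to cold and to the clock. GRP8 was at -0.06 ± 0.10 in 6x_pfd, from 7134 to 6825 counts, and did not pass (adjusted p = 0.68, DESeq2, in the authors' deposited table). The gap between the 2 genes was not tested, and the ratio of their levels per kb was 2.04 in WT and 2.77 in 6x_pfd. In pfd4 GRP7 was at -0.13 ± 0.18 and GRP8 at -0.15 ± 0.09 in the authors' deposited table. That SE of GRP7 was the largest of the list after SCL28, although GRP7 had 2602 mean normalized counts. PTB1 and PTB2, polypyrimidine tract binding proteins, lay between -0.10 and -0.02 in both mutants and did not pass in the authors' deposited tables.

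Sm proteins form the ring around the RNA of the U1, U2, U4 and U5 particles. SmD1a (AT3G07590) rose in 6x_pfd from 222 normalized counts in WT to 301 (0.44 ± 0.15, 1.36-fold, adjusted p = 0.017, DESeq2, in the authors' deposited table), the largest estimate of the list and, at this abundance, among the least precise. SmD1a overlaps AT3G07600 on the opposite strand by 478 bp and AT3G02025 on its own strand by 241 bp in the TAIR10.1 annotation, and its longest transcript is 706 bp. AT3G07600 had a mean of 75.7 normalized counts and was at 0.13 ± 0.29 in 6x_pfd in the authors' deposited table, and the part of overlapping reads in the SmD1a value was not tested. Its paralogue SmD1b, the more abundant of the pair at 839 counts in WT, was at 0.02 ± 0.10 in 6x_pfd in the authors' deposited table. SmD3b and PCP, the SmE protein known for its role in the cold, were at 0.03 ± 0.09 and -0.01 ± 0.09 there in the authors' deposited table. All 4 Sm genes lay between -0.07 and 0.06 in pfd4, and none passed in the authors' deposited table, where 7.75% of all genes did. SKIP, a spliceosome component that also acts in clock and salt responses, was at -0.07 ± 0.07 in pfd4 and 0.00 ± 0.07 in 6x_pfd in the authors' deposited tables. PRL1, a WD40 protein of the complex linked to the NTC, was at -0.13 ± 0.08 and 0.07 ± 0.08 in the authors' deposited tables.

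Paralogues had the same order of abundance in mutant and WT within each experiment. For this, 11 fixed pairs were set side by side, as levels per kb. SR34 stood 5.45 times above SR34b in the 14-day WT and 5.06 times above it in pfd4, and 4.05 and 4.35 times at 7 days. RS31 stood 7.51 times above RS31a in the 14-day WT and 6.05 times in pfd4, and 7.00 and 6.89 times at 7 days. U2AF35A stood 2.09 times above U2AF35B in the 14-day WT and 2.11 times in pfd4, and U2AF65A 1.84 and 1.80 times above U2AF65B. The longest transcripts of U2AF35A and U2AF35B are 1405 and 2420 bp, and their normalized counts in the 14-day WT were 1542 and 1273. RS40 was the minor partner of RS41, at a ratio of 0.41 in the 14-day WT and 0.47 in pfd4. The pairs with the widest gaps between their log2 fold changes were GRP7 and GRP8 (0.44) and SmD1a and SmD1b (0.42), both in 6x_pfd, and RS31 and RS31a (0.31) in pfd4. The treatment of reads shared by near-identical paralogues is not stated in the sources used here.

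The effects of both genotypes were also compared directly, by dividing the difference between their log2 fold changes by its SE (a Wald test, two-sided), adjusted by Benjamini-Hochberg over 18035 genes. Genotype, age and light regime cannot be told apart in it, nor can collection time, which is given for the 14-day groups only. Of the 39 genes in both tables, 4 differed, where 23.8% of all genes did, 11.8% higher and 12.0% lower in 6x_pfd. At an FDR of 0.01 it was 3 genes, against 16.0% of all genes, and with the length trend removed 6, against 23.1%. STA1 was higher by 0.57 ± 0.12 in the 6x_pfd effect than in the pfd4 effect (adjusted p = 2.5e-05 from this Wald model across all genes). PRP8 was higher by 0.50 ± 0.12 (adjusted p = 2.8e-04) and SR45a by 0.49 ± 0.13 (adjusted p = 0.00118). U1-70K was lower in the 6x_pfd effect (-0.29 ± 0.11, adjusted p = 0.0443). SmD1a (0.51 ± 0.21, adjusted p = 0.0601) and GRP7 (0.50 ± 0.21, adjusted p = 0.0615) had differences of like size that did not pass. Effects had opposite signs for 25 of the 39 genes, or 64.1%, against 54.5% of all genes in both tables.

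**Figure D5:**
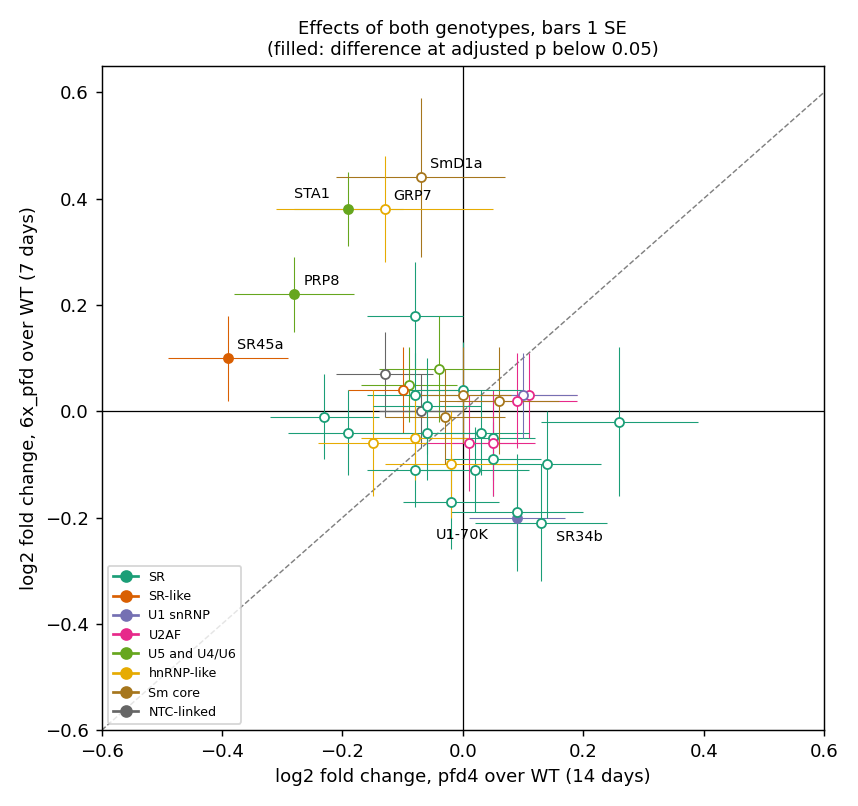
Log2 fold change in 6x_pfd (7 days) against that in pfd4 (14 days) for the 39 splicing factor genes in both tables, with bars of 1 SE and a dashed line of equal effects. Filled points are those whose difference between mutants passed an adjusted p of 0.05. STA1, PRP8 and SR45a lie above the line and U1-70K below it.

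Other spliceosome genes were read from 9 lists with 46 genes, all measured in both tables. In pfd4, 1 of 46 passed, against 7.75% of all genes, in the authors' deposited table. It was CBP80, the large subunit of the nuclear cap-binding complex, which fell from 1439 to 1104 normalized counts (-0.38 ± 0.08, adjusted p = 1.6e-04, DESeq2, in the authors' deposited table). In 6x_pfd, 5 of 46 passed, against 33.6% of all genes, of which 3 rose and 2 fell. PRMT5, the arginine methyltransferase that modifies Sm proteins, was at 0.35 ± 0.09 (adjusted p = 4.9e-04, DESeq2), CBP80 at 0.24 ± 0.09 and SF3B1, a U2 particle protein, at 0.18 ± 0.07, and these are the 3 that rose in the authors' deposited table. The SmG gene AT3G11500 (-0.24 ± 0.09) and LSM1A (-0.28 ± 0.11), part of the cytoplasmic LSM ring, fell in the authors' deposited table. No gene passed in either mutant among the 4 genes of the NTC and its associates, the 4 genes auxiliary to the U1 particle, the 7 SR protein kinase genes and PTB3, the third PTB gene. Of 11 LSM genes, LSM1A was the one that passed, and their median was 0.00 in pfd4 and -0.03 in 6x_pfd. The difference between the mutant effects passed for 3 of the 46 genes, against 23.8% of all genes. These were CBP80 (0.62 ± 0.12, adjusted p = 8.6e-06), SF3B1 (0.34 ± 0.10, adjusted p = 0.00629) and PRMT5 (0.36 ± 0.13, adjusted p = 0.0238), by the Wald model across all genes.

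The tissue label was checked on marker genes. The 4 shoot markers, of which 1 was higher in pfd4 and 2 were lower in 6x_pfd, summed to 43911 and 46666 CPM in the 14-day WT and pfd4, and to 39678 and 30529 in the 7-day WT and 6x_pfd. Of 6 root markers, 5 were measured at 14 days (1997 in WT and 2185 in pfd4 in sum, with 1 lower and a median log2 fold change of -0.39) and 6 at 7 days (5979 in WT and 5339 in 6x_pfd, with 1 higher and 3 lower and a median of -0.18). The root sum is mostly PYK10 at both ages. In pfd4 PYK10 was at 0.14 ± 0.07 and did not pass, while the other 4 lay between -0.73 and -0.27, in the authors' deposited table. In 6x_pfd PYK10 was at -0.23 ± 0.08, while the others lay between -1.36 (TIP2;3) and 0.52 (COBL9), in the authors' deposited table. Markers of dividing cells summed to 104 and 89.1 at 14 days, with 1 of 5 lower in pfd4, and to 110 and 88.8 at 7 days, with 3 of 5 lower in 6x_pfd. Of 4 seed markers, 3 were measured and rose in 6x_pfd (6.73 in WT and 109 in 6x_pfd in sum), none passed in pfd4 (59.8 in WT and 40.8), and SESA1 was in neither table. The part of these shifts in the splicing factor values was not tested.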

How the data were processed

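Stranded mRNA libraries from whole seedlings were processed by the authors, whose tools were cutadapt, HISAT2, HTSeq and DESeq2 with the build TAIR10 (versions not listed), per the submitters' processing notes. No source used here states whether counting used strand. The deposited values are, by their column headers, a mean normalized count (a signal per gene after size factors), a log2 fold change with its SE, a Wald score, its p-value and its Benjamini-Hochberg adjustment. Genes were filtered on a minimum RPKM, per the file names, by a rule that is not stated. The deposited list sheets of called genes were not used.

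No count model was fitted, since values per library were not analysed here. Depth is known as the summed mean normalized counts, 29221246 in the pfd4 table and 32374115 in the 6x_pfd table. An adjusted p was present for 18363 and 19380 genes. Calls use the deposited Wald test at an FDR of 0.05. The series' design text calls the samples biological, and p-values measure the spread between them. Group means follow from the mean and fold change with equal group sizes. Intervals are 95% normal intervals. Differences between mutants, centring and the test against a 25% change were computed in Python 3.11.15 with scipy 1.17.1. The difference test and the test against a 25% change were checked on fold changes simulated with the deposited SEs. That check cannot show whether these SEs are right. The test against a 25% change was checked for its rate of false calls only, and the centring was not checked. Lengths, overlaps and isoform numbers came from TAIR10.1, which had 18288 and 19310 of the genes, and no coordinates or sequences are printed because the named builds differ. The members and lists were chosen with earlier results of these data known. All 40 members are covered by class, with single estimates for those past the threshold in pfd4, the 12 smallest adjusted p in 6x_pfd and those nearest to the threshold. The fixed paralogue pairs are given in part. AT5G64190 and the genes overlapping SmD1a were chosen after their values were seen.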

Additional observations from a re-analysis of the deposited data

Results flagged for a closer look

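STA1, PRP8, SR45a and U1-70K responded differently in the experiments by the test of the difference between mutant effects (6x_pfd minus pfd4, on the log2 scale). They are 4 of 39 members, where 23.8% of all genes passed the same test at an adjusted p below 0.05. STA1 differed by 0.57, PRP8 by 0.50, SR45a by 0.49 and U1-70K by -0.29. STA1 was at -0.19 in pfd4 and 0.38 in 6x_pfd, PRP8 at -0.28 and 0.22, SR45a at -0.39 and 0.10, and U1-70K at 0.09 and -0.20 in the authors' deposited tables. With the median of each length bin removed, the differences were 0.44 for STA1, 0.37 for PRP8, 0.47 for SR45a and -0.32 for U1-70K, with adjusted p of 0.00192, 0.011, 0.00179 and 0.0256 in the same model across all genes. U1-70K is the least firm of these: its difference (adjusted p = 0.0443 in the same model) does not pass an FDR of 0.01, and its call in 6x_pfd is lost under equal totals (-0.12, adjusted p = 0.228). Age, light regime and collection time differ with the genotype.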

How the results depend on the processing

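SR45a in pfd4 passed at an FDR of 0.01, under both centrings set at the start, among genes with at least 100 mean normalized counts and after removal of the length trend, an alternative added after the data were seen. With a minimum absolute log2 fold change of 1, 0 members passed in pfd4 and 0 in 6x_pfd by the DESeq2 values, against 1.08% and 6.12% of all genes. Tested against a change of 25%, it was again 0 in both, against 0.899% and 9.18%. An unadjusted p below 0.05 was present for 4 of 40 and 6 of 39 members, against 19.0% and 41.2% of all genes. The FDR of 0.01 left 3 of 39 members in 6x_pfd, PRP8, STA1 and GRP7, against 24.8% of all genes. Centring on equal totals gave 5 of 39 members in 6x_pfd, against 36.3% of all genes, and 4 of them were shared with the deposited calls. SR30 entered and U1-70K was lost, because the centring subtracts the log2 ratio of totals, -0.0783, and so shifts all fold changes upward. Of all called genes 66.1% were then higher, against 50.2% as deposited. For the difference between mutants, 3 of 39 members passed at an FDR of 0.01, against 16.0% of all genes. All 3 were among the 4 that passed at an FDR of 0.05. With the length trend removed 6 of 39 passed, against 23.1% of all genes, with GRP7 and SmD1a in addition to those 4. No paired analysis was possible because the tables hold no values per library, and leaving out each replicate in turn was not run for the same reason. The SE was largest for SCL28 (0.32) and GRP7 (0.18) in pfd4, and SCL28, RS31a and SmD1a had the fewest counts.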

Other observations

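Levels of some splicing factor genes stood far apart between the WT groups of the experiments. The tables were normalized separately, and age and light regime differ. A collection time is given for the 14-day groups only. These levels are thus given side by side with no test. As CPM, GRP7 was at 92.7 in the 14-day WT and 462 in the 7-day WT, and GRP8 at 112 and 215. SR45a went the other way, at 175 and 43.8, and SR30 stood at 150 and 66.9. PRP8 (277 and 278), PRP31 (49.9 and 51.1) and SKIP (111 and 110) were nearly level.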
